A study of Homo sapiens with 12 samples.

Results

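Genes that cells switch on when oxygen is short were followed here in human HEK293 cells induced to make ALKBH7 or ALKBH4. The set held 10 genes, namely HIF1A, NDRG1, CA9, BNIP3, BNIP3L, ADM, PDK1, SLC2A1, ANKRD37 and BHLHE40, and every probe of the array whose annotated gene symbol was one of them was taken. Of 48803 probes, 12 carried such a symbol, and they covered 9 of the 10 genes. CA9, a carbonic anhydrase of the cell surface, had no probe under its symbol in the annotation used, so no value is given for it. A probe was tested where its detection p was under 0.01 on at least 3 of 12 arrays, which 15444 probes of the array and 11 of the 12 member probes met. All 9 measured genes kept at least 1 probe, and the probe left out, the second of 2 for BNIP3L, was detected on 2 arrays.

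The hypoxia response is driven by hypoxia inducible factor (HIF), a dimer of an oxygen-labile alpha subunit, such as HIF1A, with the stable partner ARNT. Prolyl hydroxylases of the EGLN family, which like the AlkB homologues need ferrous iron, oxygen and 2-oxoglutarate, mark the alpha subunit for the von Hippel-Lindau (VHL) ubiquitin ligase, so that HIF is controlled mostly at the level of the protein. When oxygen or the hydroxylases fail, HIF binds a short core motif near its target genes, which move cells toward glycolysis, glucose uptake, removal of mitochondria and vessel growth. No protein was measured on these arrays, and the labels name no low-oxygen treatment.

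HEK293 is a line derived from human embryonic kidney. Both lines were Flp-In T-REx derivatives that carried 1 FLAG-tagged transgene at a single genomic site behind a tetracycline-inducible promoter, and single colonies had been expanded. The 4 groups of 3 arrays each were the ALKBH7 line given 2 µg/ml doxycycline (ALKBH7 induced), the same line without it (ALKBH7 uninduced), the ALKBH4 line given 2 µg/ml doxycycline (ALKBH4 induced) and that line without it (ALKBH4 uninduced). All groups grew in tetracycline-free serum with blasticidin and hygromycin. Every induced sample had both the drug and the transgene, which cannot be told apart. The labels name no array run, so any difference in runs between the lines cannot be told apart from the cell line. The labels do not state whether replicates came from separate cultures. The p-values here reflect only the spread between these samples, which may be technical.

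Median raw intensities were 98.9 to 121 on ALKBH7 line arrays and 45.6 to 61.6 on ALKBH4 line arrays, and 25.3% to 30.7% of probes were detected per array. Levels below are log2 of intensities quantile normalized over the 12 arrays, and fold changes are differences of mean levels in a limma fit with Benjamini-Hochberg adjustment over all 15444 probes. The ALKBH7 probe read 13.04 ± 0.24 in ALKBH7 induced and 9.32 ± 0.30 in ALKBH7 uninduced cells (SD, n = 3 each). The ALKBH4 probe read 7.56 ± 0.27 in ALKBH4 induced and 7.67 ± 0.20 in ALKBH4 uninduced cells (SD, n = 3 each), but it anneals to an untranslated part of the transcript and checks nothing about the transgene. Of 5 HEK293 markers 4 passed the detection filter, against 1 of 6 for fibroblasts and 1 of 4 for endothelium. Among markers with a probe, 1 of 5 passed for blood cells and 2 of 5 for epithelial lines.

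ALKBH7 uninduced replicate 1 stood apart from its group. Its mean correlation over the tested probes was 0.940 with the other 2 ALKBH7 uninduced arrays and 0.967 with the ALKBH7 induced arrays. The ALKBH7 probe read 9.32 ± 0.30 over the 3 uninduced arrays, this array included, against 13.04 ± 0.24 in ALKBH7 induced cells. Among the members, replicate 1 lay nearer to the induced mean for HIF1A, BNIP3L, ADM, PDK1, SLC2A1 and ANKRD37. It lay nearer to the other uninduced arrays for NDRG1, BNIP3 and BHLHE40. Where leaving it out changed the call of a member, the result without it is given.

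Promoter sequence was taken from RefSeq windows of build GRCh38.p14, which run from 250 bases before to 50 bases after each annotated start. The core letters searched were ACGTG and GCGTG, on both strands, with overlapping matches counted. Windows of 8 member genes, the unmeasured CA9 among them, were searched, and each gene had a match in at least 1 of its windows. NDRG1 and BNIP3L were not searched, so the matches do not cover them. HIF1A and PDK1 had 2 windows each with a match in 1 of them. Among 35116 promoter windows, 21.4% held ACGTG, 36.5% held GCGTG and 48.4% held either. The stretches shown belong to BNIP3, ADM and BHLHE40, whose transcripts passed the test after ALKBH7 induction, and to ANKRD37, which differed between the uninduced lines. They lie upstream of the start and read 5′ to 3′ along the gene, with capitals marking the searched letters on either strand.
BNIP3 (chr10:131982003-131982086, minus strand): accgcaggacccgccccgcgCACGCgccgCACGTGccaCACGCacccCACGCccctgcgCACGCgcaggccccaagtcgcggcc
ADM (chr11:10304952-10304996, plus strand): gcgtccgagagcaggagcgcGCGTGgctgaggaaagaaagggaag
BHLHE40 (chr3:4979187-4979312, plus strand): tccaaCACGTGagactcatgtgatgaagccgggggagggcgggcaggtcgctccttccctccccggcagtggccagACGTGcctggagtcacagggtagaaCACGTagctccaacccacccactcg
ANKRD37 (chr4:185396659-185396722, plus strand): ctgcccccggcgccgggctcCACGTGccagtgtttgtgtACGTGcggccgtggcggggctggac
The BNIP3 stretch held 6 matches, with the palindrome CACGTG counted once on each strand, and those of BHLHE40, ANKRD37 and ADM held 4, 3 and 1. These are matches of letters and show no binding.

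The first comparison asks what induction of ALKBH7 did to these transcripts. Of the 9 genes, each read at its brightest probe, NDRG1, BNIP3 and ADM rose, BHLHE40 fell and 5 did not pass at an adjusted p of 0.05. The 4 calls compare with a background in which 22.8% of 10159 named genes passed, 12.4% up and 10.4% down, and with 9 genes the count is given as a description beside that share. The median log2 fold change was -0.06 over the 9 genes and 0.05 over all named genes. The arrays of the 2 groups did not overlap for those same 4 genes, against 35.7% of all named genes.

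NDRG1, a cytoplasmic stress-response protein and one of the best known hypoxia markers, had the largest change of the set. Its levels were 8.93, 9.09 and 8.81 on ALKBH7 induced arrays, against 8.12, 8.05 and 7.58 on ALKBH7 uninduced arrays. In raw intensity these were 538, 643 and 660, against 258, 266 and 306. All 3 induced arrays lay above all 3 uninduced arrays on both scales. The log2 fold change was 1.03 (SE 0.19, 95% interval 0.61 to 1.44, adjusted p = 0.0039), which is 2.04-fold. NDRG1 passed in each of 12 fits that left out 1 array, with log2 fold changes of 0.86 to 1.13, and the value without ALKBH7 uninduced replicate 1 was 1.13 (adjusted p = 0.00046). Leaving out an array of a group outside the comparison changes only the estimated spread and adjusted p, not the fold change, here and below.

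BNIP3, a protein of the outer mitochondrial membrane that promotes mitophagy, read 10.65, 10.92 and 10.73 on ALKBH7 induced arrays and 9.82, 10.12 and 10.53 on ALKBH7 uninduced arrays. The induced values lay close together, whereas the uninduced ones were spread widely and the highest of them came close to the lowest induced array. In raw intensity the groups overlapped, with uninduced replicate 3 at 2175 above induced replicate 1 at 1812. It rose 1.53-fold, or 0.61 on the log2 scale (SE 0.17, adjusted p = 0.024). The call was lost when ALKBH7 uninduced replicate 2, induced replicate 1 or induced replicate 2 was left out, where the adjusted p reached 0.107 at most.

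ADM encodes adrenomedullin, a secreted vasodilator peptide. It read 10.61, 10.58 and 10.52 on ALKBH7 induced arrays, against 10.37, 10.07 and 10.20 on ALKBH7 uninduced arrays. All induced arrays were above all uninduced arrays. The increase was the smallest of the 3 genes that rose, at 1.28-fold or 0.36 on the log2 scale (SE 0.12, adjusted p = 0.047). It passed in only 2 of 12 fits that left out 1 array, so the call lies at the threshold.

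BHLHE40, a basic helix-loop-helix repressor of transcription that HIF induces in many cell types, went the other way. Its levels were 9.05, 9.13 and 9.08 on ALKBH7 induced arrays and 9.59, 10.06 and 9.98 on ALKBH7 uninduced arrays. The induced arrays were the lowest of all 12 for this gene and lay close together. In raw intensity the groups overlapped, with induced replicate 3 at 799 above uninduced replicate 1 at 671. The log2 fold change was -0.79 (SE 0.19, 95% interval -1.20 to -0.38, adjusted p = 0.012). It was -0.93 (adjusted p = 0.0012) without ALKBH7 uninduced replicate 1 and -0.70 (adjusted p = 0.051) without replicate 2.

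**Figure D1:**
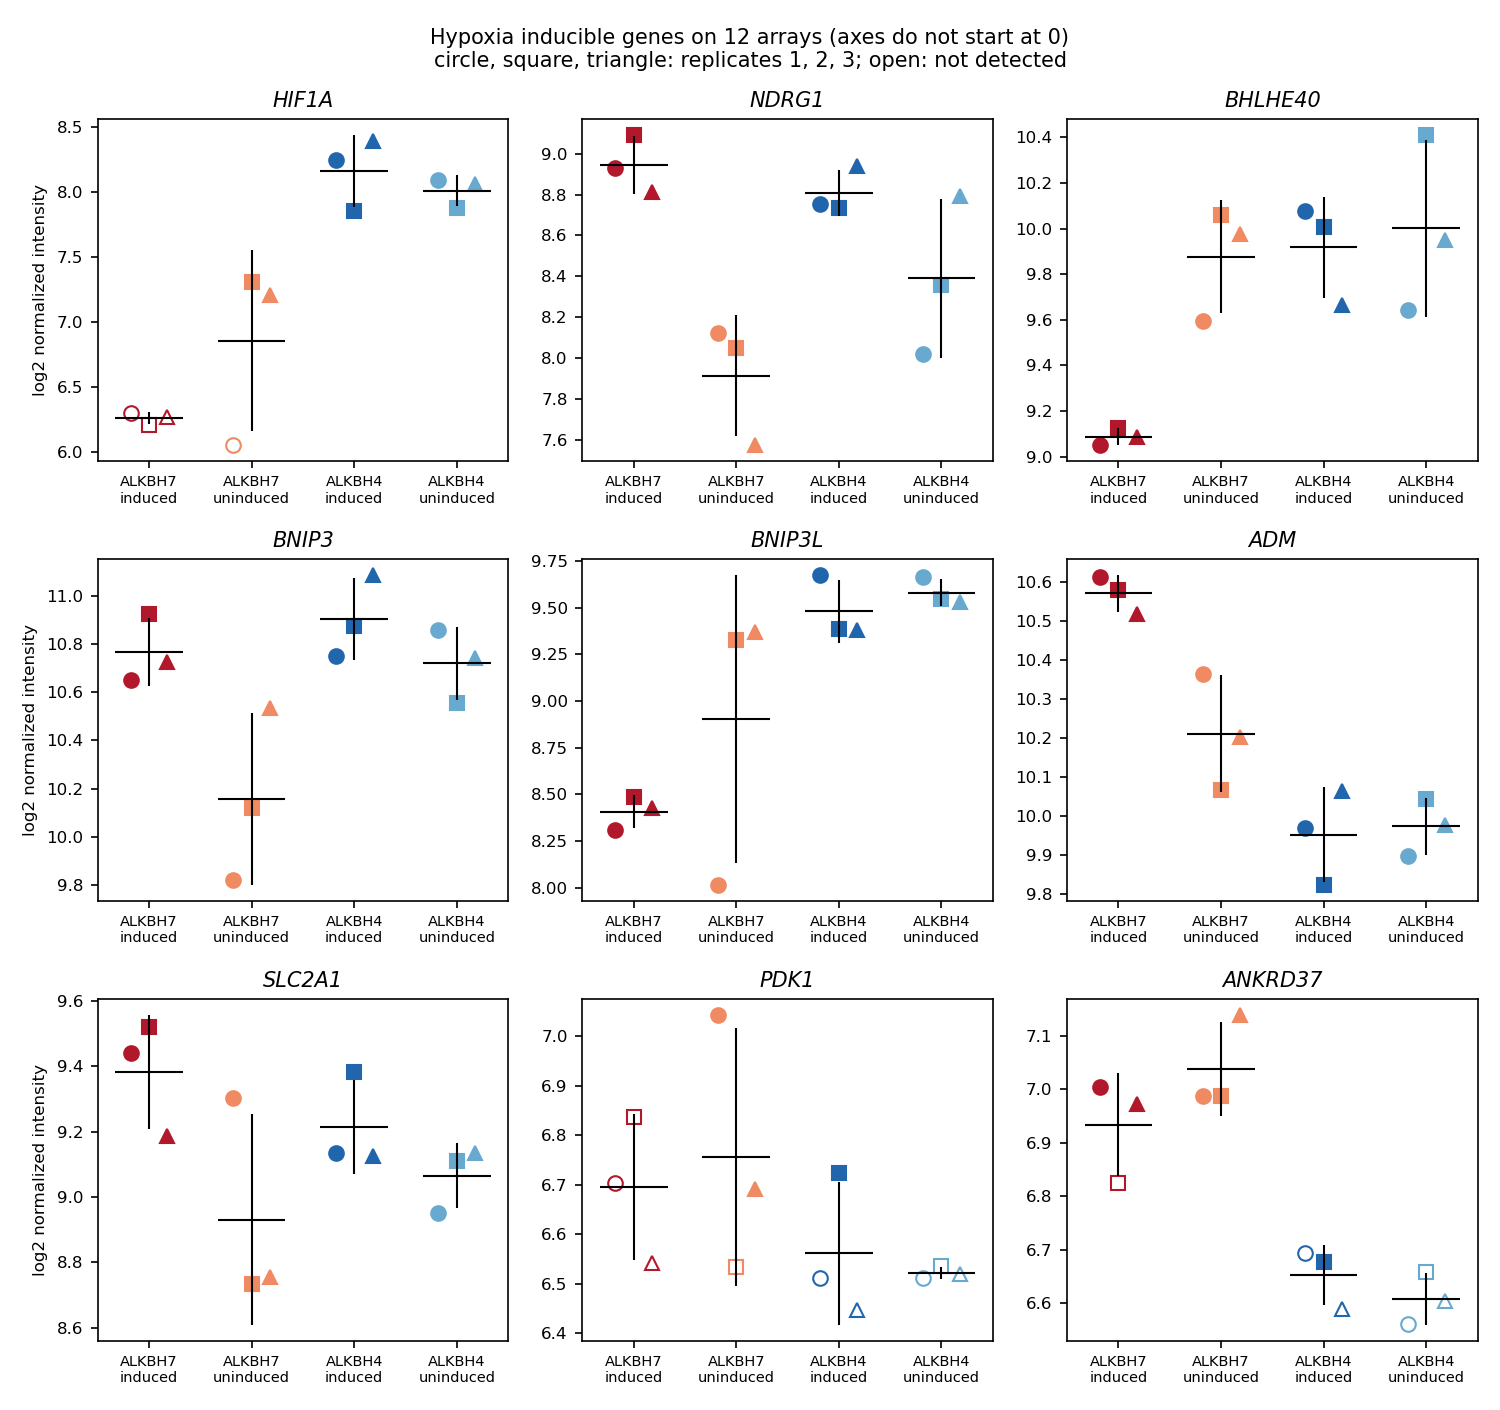
Log2 normalized intensity of the brightest probe of 9 hypoxia inducible genes on each array, by group, with group means (horizontal lines) and SD (vertical lines, n = 3). NDRG1 lies between 8.81 and 9.09 in ALKBH7 induced cells and between 7.58 and 8.12 in ALKBH7 uninduced cells, and ALKBH7 uninduced replicate 1 (circle) lies far from the other uninduced arrays for HIF1A, BNIP3L and SLC2A1.

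The remaining genes of the set did not pass after ALKBH7 induction. SLC2A1, the glucose transporter GLUT1, read 9.44, 9.52 and 9.19 on ALKBH7 induced arrays and 9.30, 8.73 and 8.76 on ALKBH7 uninduced arrays. The high uninduced value was replicate 1, and the groups overlapped through it. The log2 fold change was 0.45 (SE 0.16, adjusted p = 0.059), and 0.64 (adjusted p = 0.0018) without replicate 1.

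HIF1A itself was dim in the ALKBH7 line. Its brightest probe of 3 read 6.30, 6.21 and 6.27 on ALKBH7 induced arrays, none of them detected, against 6.05, 7.31 and 7.20 on ALKBH7 uninduced arrays, where replicates 2 and 3 were detected. The measured log2 fold change was -0.59 (SE 0.26, adjusted p = 0.110). With the induced group below detection only a bound could hold. It came to 1.04-fold higher in uninduced cells, but their mean includes the undetected replicate 1 and the comparison did not pass. No minimum difference is therefore read from it, and with replicate 1 as the only uninduced array the measured value was 0.21. Leaving out ALKBH7 uninduced replicate 1 gave a measured -0.99 (adjusted p = 0.00014), against the same undetected induced arrays, and replicate 1 itself was not detected. The other 2 HIF1A probes were detected on no ALKBH7 induced array, and on 0 and 1 of 3 ALKBH7 uninduced arrays, so no fold change or direction is read from them here.

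BNIP3L, the paralogue of BNIP3 with a similar part in mitophagy, showed the same arrangement of arrays as HIF1A. It read 8.31, 8.49 and 8.43 on ALKBH7 induced arrays, against 8.01, 9.33 and 9.37 on ALKBH7 uninduced arrays. Replicate 1 was the lowest of all 6 and the other 2 uninduced arrays the highest. The log2 fold change was -0.50 (SE 0.27, adjusted p = 0.193), and -0.94 (adjusted p = 6.2e-05) without replicate 1. It was negative in all 12 fits that left out 1 array, at -0.94 to -0.26. Those leaving out an ALKBH4 line array could not move it, and it was 0.39 with replicate 1 as the only uninduced array.

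PDK1, a kinase that shuts pyruvate out of the citric acid cycle, was near the limit of detection, with 3 of 12 arrays detected. It read 6.70, 6.84 and 6.54 on ALKBH7 induced arrays, none of them detected, and 7.04, 6.53 and 6.69 on ALKBH7 uninduced arrays, giving -0.06 (95% interval -0.38 to 0.25, adjusted p = 0.785). ANKRD37, an ankyrin repeat protein, was detected on 6 of 12 arrays. Its levels were 7.01, 6.82 and 6.97 on ALKBH7 induced arrays and 6.99, 6.99 and 7.14 on ALKBH7 uninduced arrays. The log2 fold change was -0.10 (95% interval -0.34 to 0.14, adjusted p = 0.520).

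Without ALKBH7 uninduced replicate 1, 7 of 9 genes passed, with NDRG1, BNIP3, ADM and SLC2A1 up and HIF1A, BNIP3L and BHLHE40 down, while the number of probes passing over the whole array was 6826 in place of 3710. With replicate 1 as the only uninduced array of its line, NDRG1 (0.82, adjusted p = 0.040) and BNIP3 (0.95, adjusted p = 0.0096) passed and BHLHE40 did not (-0.51, adjusted p = 0.187). The rank product test that the study's methods name, run on the same values at a q-value under 5%, gave members' calls that depended on how its null was drawn. With the ranks of each of the 9 pairs of arrays permuted separately, the form run first, NDRG1 (q-value 0.0041%) passed at the methods' 2-fold threshold among 697 probes, and NDRG1, BNIP3 (0.907%) and BHLHE40 (0.709%) passed without a fold threshold. With probes permuted within arrays, 284 probes and 0 of the 9 genes passed, and NDRG1 came nearest with a q-value of 7.99%. This second form was tried once the counts of the first were seen to lie far from those of an earlier analysis of these data. It treats the pairs as sharing arrays. Which form the software named in the methods uses was not checked, so neither the calls nor their loss is settled by this test.

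**Figure D2:**
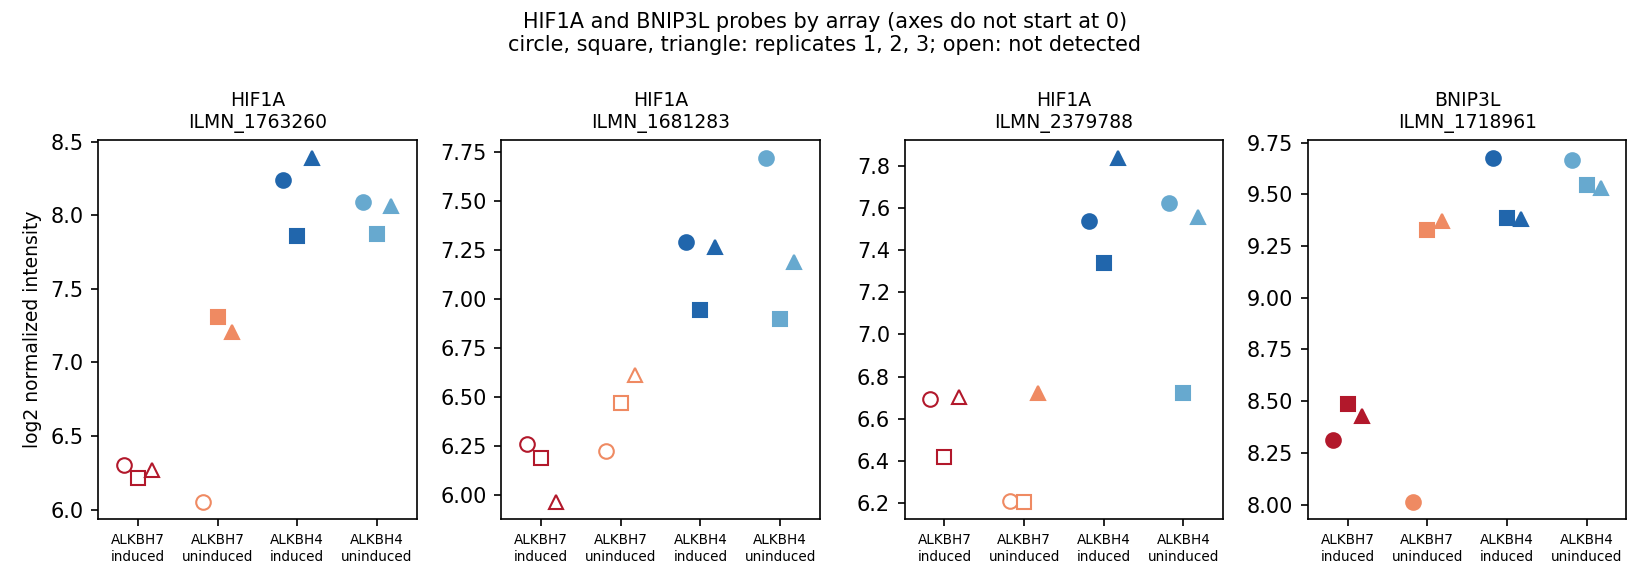
Log2 normalized intensity on each array of the 3 HIF1A probes and the tested BNIP3L probe, by group, with open symbols for arrays on which the probe was not detected. The brightest HIF1A probe and the BNIP3L probe both show ALKBH7 uninduced replicate 1 (6.05 and 8.01) below all ALKBH7 induced arrays and replicates 2 and 3 well above them.

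Induction of ALKBH4 served as the matching comparison in the second line. None of the 9 genes passed, nor did any of 15444 probes (percent called 0), where 376 probes had an unadjusted p under 0.05 in the limma fit. The rank product test called 6 probes and no member with probes permuted within arrays, and with pairs permuted separately 296 probes at the methods' fold threshold and 1180 without it, NDRG1 (q-value 2.44%) among the second set. NDRG1 again had the largest difference of the set. It read 8.75, 8.74 and 8.94 on ALKBH4 induced arrays, against 8.02, 8.36 and 8.79 on ALKBH4 uninduced arrays. The highest uninduced array lay within the induced range, and the log2 fold change of 0.42 (95% interval 0.00 to 0.83, adjusted p = 0.999) did not pass. It ranged between 0.23 and 0.62 when 1 array was left out and between 0.12 and 0.81 over the other alternatives, and passed in none of these limma fits. The other 8 genes lay between -0.10 for BNIP3L and 0.18 for BNIP3, and 0 of 9 had groups that did not overlap, against 9.81% of named genes.

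The 2 responses were compared directly by the difference of their log2 fold changes. No member passed, and 0.0492% of named genes did. NDRG1 differed by 0.61 (95% interval 0.02 to 1.20, adjusted p = 0.279) and BHLHE40 by -0.71 (95% interval -1.29 to -0.12, adjusted p = 0.214), so neither response was shown to belong to 1 line. Without ALKBH7 uninduced replicate 1, BHLHE40 (-0.85, adjusted p = 0.027) and BNIP3L (-0.84, adjusted p = 0.0037) passed, among 3335 probes in place of 11. HIF1A also passed (adjusted p = 0.0016), but its probe was detected on no ALKBH7 induced array, so no size of the difference is given.

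The order of NDRG1 levels was ALKBH7 induced (8.94 ± 0.14), ALKBH4 induced (8.81 ± 0.11), ALKBH4 uninduced (8.39 ± 0.39) and ALKBH7 uninduced (7.92 ± 0.30; SD, n = 3 each). Of the steps tested only that between the ends of this order passed, and the ALKBH7 and ALKBH4 induced groups were not tested against each other. The arrays of each pair of neighbours overlapped.

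The third comparison set the lines against each other without drug, in ALKBH7 uninduced over ALKBH4 uninduced cells. The ALKBH7 probe also differed here, at 9.32 ± 0.30 in ALKBH7 uninduced and 7.80 ± 0.05 in ALKBH4 uninduced cells (SD, n = 3 each), so that line and ALKBH7 level cannot be told apart. ANKRD37 was higher and HIF1A and BNIP3 lower in the ALKBH7 line, and 6 genes did not pass. In this comparison 38.7% of named genes passed, 21.7% up and 17.0% down, so 3 of 9 is near the background. The arrays did not overlap for 5 of 9 genes, against 43.7% of named genes, and the median log2 fold change was -0.13 over the set and 0.00 over all named genes.

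HIF1A was lower at all 3 probes on the normalized scale, while in raw intensity the 2 groups overlapped at each probe. The brightest read 6.05, 7.31 and 7.20 on ALKBH7 uninduced arrays, against 8.09, 7.87 and 8.06 on ALKBH4 uninduced arrays. Every ALKBH7 line array lay below every ALKBH4 line array, and the log2 fold change was -1.15 (SE 0.26, adjusted p = 0.0043), or -0.75 (adjusted p = 0.0015) without replicate 1. The second probe gave -0.83 (95% interval -1.25 to -0.41, adjusted p = 0.0052) with no detected array in ALKBH7 uninduced cells. Set against the lowest detected levels, the ALKBH4 line mean was 1.47-fold higher, a bound that leaves out sampling spread. The third probe gave a measured -0.92 (adjusted p = 0.0076), with only 1 of 3 ALKBH7 uninduced arrays detected.

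BNIP3 read 9.82, 10.12 and 10.53 on ALKBH7 uninduced arrays and 10.86, 10.56 and 10.74 on ALKBH4 uninduced arrays. The groups did not overlap but nearly touched. The log2 fold change was -0.56 (SE 0.17, adjusted p = 0.022), and the call was lost in 4 of 12 fits that left out 1 array, among them those without ALKBH7 uninduced replicate 1 (-0.39, adjusted p = 0.057) and replicate 2 (-0.54, adjusted p = 0.051). BNIP3L, at 8.01, 9.33 and 9.37 in ALKBH7 uninduced cells and 9.66, 9.55 and 9.53 in ALKBH4 uninduced cells, differed by -0.68 (adjusted p = 0.064) and did not pass. It was -0.23 (adjusted p = 0.155) without replicate 1 and passed at -0.89 (adjusted p = 0.028) without replicate 2.

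ANKRD37 was detected on all 3 ALKBH7 uninduced arrays, at 6.99, 6.99 and 7.14, and on no ALKBH4 uninduced array, at 6.56, 6.66 and 6.60. Set against the lowest detected levels, its mean was 1.34-fold higher in the ALKBH7 line, a bound that leaves out sampling spread. The measured log2 fold change was 0.43 (95% interval 0.19 to 0.67, adjusted p = 0.0093). ANKRD37 passed in all 12 fits that left out 1 array. With median scaling in place of quantile normalization none of the 3 calls held, at 0.36 (adjusted p = 0.265) for ANKRD37, -1.17 (adjusted p = 0.055) for HIF1A and -1.07 (adjusted p = 0.071) for BNIP3. NDRG1 differed by -0.47 (adjusted p = 0.067), or -0.58 (adjusted p = 0.031) without ALKBH7 uninduced replicate 1. ADM differed by 0.24 (adjusted p = 0.134), SLC2A1 by -0.13 (adjusted p = 0.535) and BHLHE40 by -0.12 (adjusted p = 0.628). PDK1, detected on no ALKBH4 uninduced array, gave a measured 0.23 (adjusted p = 0.217).

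**Figure D3:**
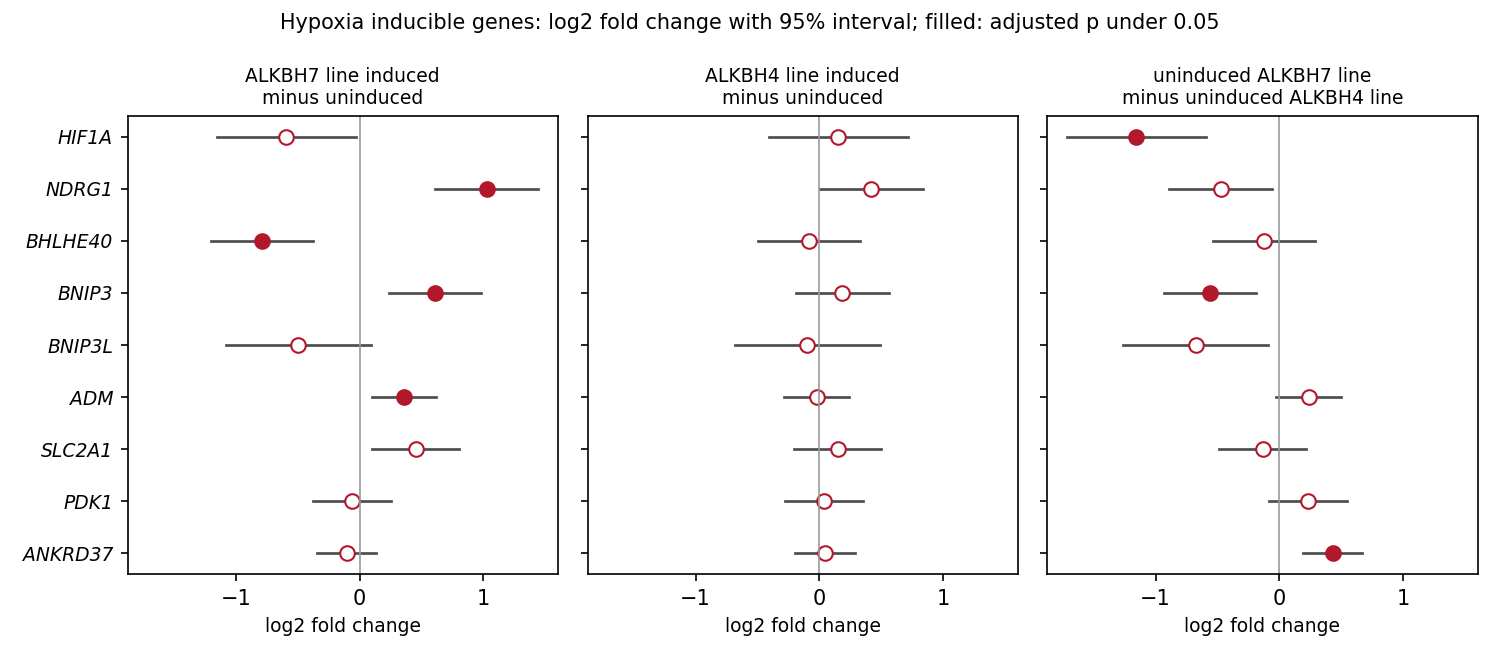
Log2 fold change of the brightest probe of each gene (points) with its 95% interval (lines) in 3 comparisons, filled where the adjusted p was under 0.05. After ALKBH7 induction NDRG1 (1.03), BNIP3 (0.61) and ADM (0.36) are filled to the right of 0 and BHLHE40 (-0.79) to the left, after ALKBH4 induction none is filled, and between the uninduced lines HIF1A (-1.15), BNIP3 (-0.56) and ANKRD37 (0.43) are.

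Other genes of the pathway were taken from lists of HIF regulators, further HIF targets, glycolytic targets and paralogues. Among 13 tested regulators, 2 rose after ALKBH7 induction and none fell, beside 22.8% of named genes that passed. These were RBX1 (1.15, SE 0.24, adjusted p = 0.0071) and ELOC (0.69, SE 0.16, adjusted p = 0.0092), both subunits of the VHL ubiquitin ligase. RBX1 is among the genes the study itself names, so it is not independent of these samples. Its level was 11.29 in ALKBH7 induced and 10.15 in ALKBH7 uninduced cells.

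The 38 further targets tested split into 4 that rose, 6 that fell and 28 that did not pass, which is near the background of 12.4% up and 10.4% down. The highest were PFKFB4 (0.88, adjusted p = 0.0094), which sets the level of fructose 2,6-bisphosphate, and the transferrin receptor TFRC (0.82, adjusted p = 0.0094), followed by the collagen lysyl hydroxylase PLOD1 (0.70, adjusted p = 0.012) and the glycogen synthase GYS1 (0.59, adjusted p = 0.037). The lowest was the chemokine receptor CXCR4 (-0.87, adjusted p = 0.033), which was not detected on any ALKBH7 induced array. Its bound, which leaves out sampling spread, was 1.18-fold higher in ALKBH7 uninduced cells. VLDLR (-0.69, adjusted p = 0.028), RORA (-0.68, adjusted p = 0.015), the mitochondrial protease LONP1 (-0.64, adjusted p = 0.0069) and TMEM45A (-0.60, adjusted p = 0.019) also fell. Other tested probes of CXCR4, RORA and TMEM45A gave -0.02, 0.45 and 0.20 at their highest. The median over this list was 0.17, beside 0.05 over all named genes.

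Of 12 glycolytic targets, the aldolase ALDOC rose (0.74, adjusted p = 0.0058), the phosphoglycerate mutase PGAM1 fell (-1.30, adjusted p = 0.015) and 10 did not pass, with a median of -0.01. Among 10 tested paralogues of the set NDRG3 rose (1.08, adjusted p = 0.0040), at a mean of 10.32 in ALKBH7 induced and 9.24 in ALKBH7 uninduced cells, while its second probe gave 0.01. Without ALKBH7 uninduced replicate 1 the further targets gave 9 up and 11 down and the regulators 5 up and 3 down. In that fit 6826 of all 15444 probes passed, 3385 up and 3441 down, so the background was also higher. Of the 4 HEK293 markers tested, the intermediate filament VIM fell after ALKBH7 induction (-0.95, adjusted p = 0.016), and NEFL (0.46), PAX2 (0.34) and INA (0.06) did not pass. Of the 2 epithelial markers EPCAM fell (-0.74, adjusted p = 0.0087) and CDH1 (-0.41, adjusted p = 0.116) did not pass. The part of these markers in the results was not tested.

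No gene of these 4 lists passed after ALKBH4 induction. DDIT4, an inhibitor of mTORC1, had the largest difference among the further targets (-0.98, adjusted p = 0.568). The study itself lists DDIT4, and STC2 named below, as lowered after ALKBH4 induction by rank product at its own thresholds. Neither gene is independent of these samples. The regulator CITED2 gave 0.44 (adjusted p = 0.999). None passed in the difference of the 2 responses either.

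Between the uninduced lines 7 of the 38 further targets were higher in the ALKBH7 line, 10 were lower and 21 did not pass, beside 21.7% and 17.0% of all named genes. DDIT4 (2.24, adjusted p = 9.5e-06), LONP1 (1.23, adjusted p = 5.2e-05) and the secreted glycoprotein STC2 (1.13, adjusted p = 0.00045) were the highest, and FAM162A (-1.44, adjusted p = 0.00076), TFRC (-1.26, adjusted p = 0.00031) and the collagen prolyl hydroxylase P4HA1 (-0.95, adjusted p = 0.0099) the lowest. Among regulators ARNT2, a partner of HIF alpha subunits, was higher (1.03, adjusted p = 0.00062), as was the coactivator CREBBP (1.00, adjusted p = 0.00365). The prolyl hydroxylase EGLN2 (-0.79, adjusted p = 0.011), RBX1 (-0.76, adjusted p = 0.027) and the ligase scaffold CUL2 (-0.58, adjusted p = 0.035) were lower, though the second EGLN2 probe gave 1.31. RBX1, TFRC and PFKFB4 were lower in uninduced ALKBH7 cells than in uninduced ALKBH4 cells and rose on ALKBH7 induction, and since the same ALKBH7 uninduced arrays enter both comparisons these values are not independent.

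**Figure D4:**
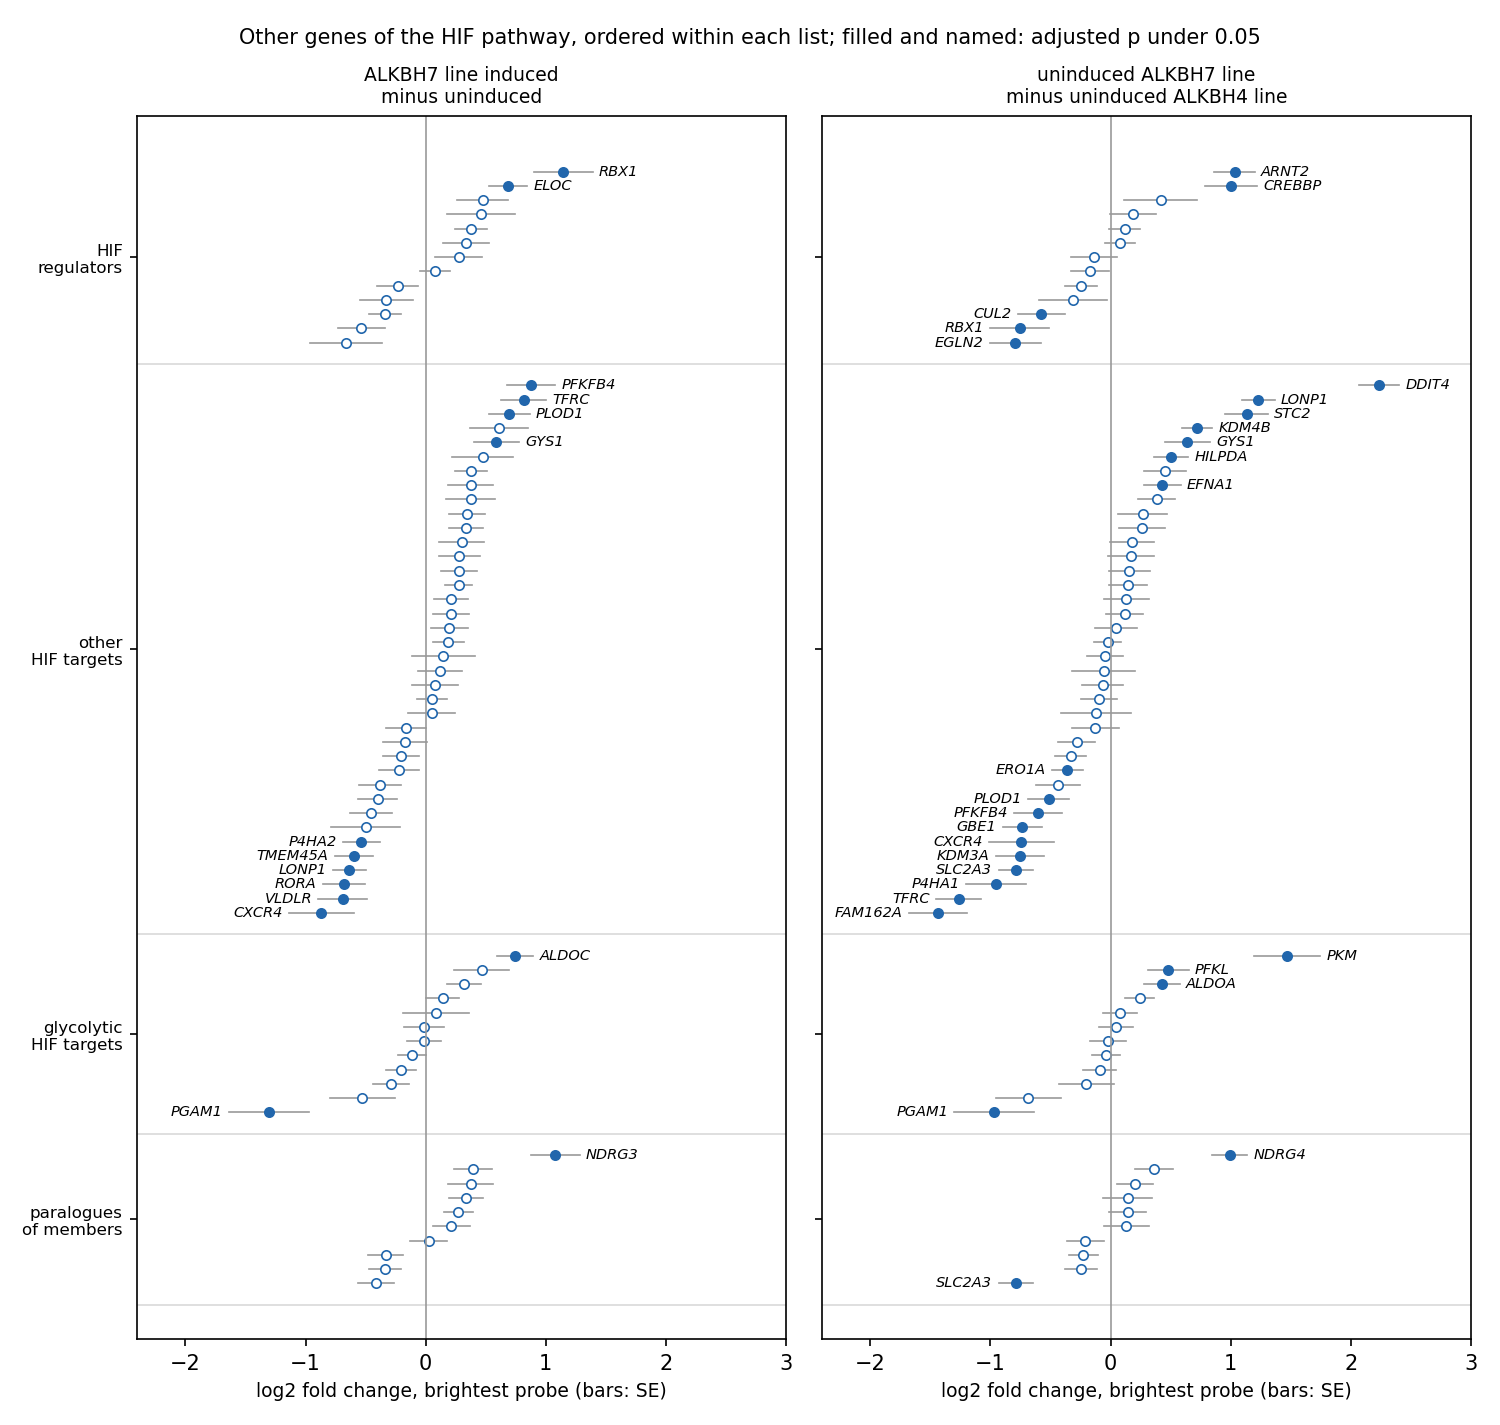
Log2 fold change (points) with SE (lines) of tested genes in 4 lists of the HIF pathway, ordered within each list, after ALKBH7 induction (left) and between uninduced lines (right). Filled points passed at an adjusted p of 0.05. In both panels each of the 2 largest lists holds genes on both sides of 0. Filled points lie on both sides too, except among the regulators on the left, where they lie only above 0. RBX1 at 1.15 and PGAM1 at -1.30 are the extremes on the left.

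The 5 genes most like NDRG1 by Pearson correlation of levels over the 12 arrays were MKNK2 (r = 0.958), RITA1 (0.939), NSMF (0.937), HSPE1 (0.934) and FKBP14 (0.933). These correlations describe 12 arrays that share 4 group means. For deviations from the group means they were 0.836, 0.826, 0.798, 0.771 and 0.664. MKNK2, a kinase of the translation factor eIF4E, averaged 9.93 in ALKBH7 induced, 8.86 in ALKBH7 uninduced, 9.70 in ALKBH4 induced and 9.30 in ALKBH4 uninduced cells. MKNK2 and FKBP14 had the group order of NDRG1, whereas RITA1, NSMF and HSPE1 were highest in ALKBH4 induced cells (9.21, 8.67 and 12.20, against 9.14, 8.64 and 12.16 in ALKBH7 induced cells).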

How the data were processed

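Total RNA from 12 HEK293 samples was hybridized to Illumina HumanWG-6 v3 arrays, 1 colour, 3 per group. The deposited bead summary intensity and detection p-value of each probe were exported from GenomeStudio by the authors without normalization. The series table, used as an alternative, holds values the authors quantile normalized, on a linear intensity scale, with a distribution shared within but not between lines. Background subtraction before export is not given in the sources used here.

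Intensities were quantile normalized over 12 arrays and taken as log2, with no background correction. Probes with detection p under 0.01 on at least 3 arrays were fitted with 4 group means in limma 3.58.1 (R 4.3.3, lmFit and eBayes), with Benjamini-Hochberg adjustment over 15444 probes and a call at 0.05. Figures used Python 3.11.15 and matplotlib 3.10.9. The brightest probe stood for a gene. Bounds for probes undetected throughout a group set the brighter mean against the higher of the dim value and the lowest detected level per array. They compare means and leave out sampling spread. Of 48803 probes 27578 had 1 gene symbol, 13 several and 21212 none. Probe symbols came from the platform annotation, updated by gene ID. Each deposited column matched its own sample in the series table best on 12 of 12 arrays, and any 2 arrays differed at 48773 probes or more. Intensity gives no count depth, so the number of arrays limits the precision. The fit was also run on simulated data with independent noise per probe. These held no array-wide deviation such as that of ALKBH7 uninduced replicate 1, so they do not show how the fit behaves with it.

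Named beyond the 10 genes are, per list and comparison, up to 5 highest and 5 lowest genes passing the test, or the leading differences where none passed, and the 5 genes most correlated with NDRG1. The members and lists were chosen with earlier results of these data known. Alternatives were other background correction, normalization, filters, variance models, probe summaries, thresholds, the replicate block, left-out arrays and the rank product test of the methods (100 permutations, 9 array pairs). For that test 2 nulls were run. The first permuted the ranks of each pair separately. The second permuted probes within arrays, so that pairs share arrays, and was tried after the first null's counts were seen to lie far from those of an earlier analysis of these data. Which null the software of the methods uses was not checked, and values are given under both.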

Additional observations from a re-analysis of the deposited data

How the results depend on the processing

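Under alternatives the count of the 9 genes called after ALKBH7 induction (4) was 0 with median scaling, 2 with each line fitted alone, 7 with array weights, 1 at an adjusted p of 0.01, and 2 with uninduced replicate 1 as the only uninduced array of its line, an alternative chosen after seeing the data that assumes this array to vary like the other groups. Leaving out 1 array gave 1 to 7. Probes called (3710) were 1 with median scaling, 1750 with each line alone, 8584 with array weights, 1255 at 0.01, 1970 with replicate 1 alone and 1250 to 6826 leaving out 1 array. NDRG1 passed in 13 of 14 alternative fits (not median scaling, 1.04, adjusted p = 0.187), BNIP3 in 12, BHLHE40 in 12 and ADM in 4.

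After ALKBH4 induction no limma fit called a member, and probes called (0) were 2 with array weights and 0 in each fit leaving out 1 array. For the difference of responses, members called (0) were 6 with array weights and 0 to 3 leaving out 1 array, with 3 without ALKBH7 uninduced replicate 1. Its probes called (11) were 1 with median scaling, 7 with cyclic loess, 75 with no filter, 4 with probes detected on all 12 arrays, 1 with the authors' normalized values, 51 with trend and robust variance, 6430 with array weights, 1 at 0.01, 381 at 0.1, 91 with replicate 1 alone and 1 to 3335 leaving out 1 array.

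The rank product calls depended on the null, and the one permuting probes within arrays was tried after the counts with pairs permuted separately were seen to lie far from those of an earlier analysis of these data. Within arrays it called 284 probes with the fold threshold and 285 without it after ALKBH7 induction, 6 and 6 after ALKBH4 induction, and 0 members. With pairs permuted separately it called 697 and 3095 probes after ALKBH7 induction, with 1 and 3 members, and 296 and 1180 after ALKBH4 induction, with 0 and 1 members.

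Between uninduced lines, members called (3) were 0 with median scaling, 1 of 6 among probes detected on all 12 arrays, 5 with array weights, 5 at 0.1, 6 with replicate 1 alone and 2 to 4 leaving out 1 array. Probes called (5930 of 15444) were 1397 with median scaling, 8988 of 48803 with no filter, 3270 at 0.01 and 4175 to 6517 leaving out 1 array. Median scaling moved the median log2 fold change of all probes to 0.28 after ALKBH4 induction, 0.07 after ALKBH7 induction, -0.21 for the difference and -0.24 between lines, and its split of probes called between lines was 354 up and 1043 down, against 3076 and 2854. The cause of these changes was not tested.

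Deviations of same-numbered arrays from their group means correlated at 0.41, -0.12 and 0.17 in the ALKBH7 line and -0.13, 0.26 and 0.11 in the ALKBH4 line. Arrays of different numbers were not compared in this way, so whether the numbers pair the arrays was not settled. With the replicate block 3 members (NDRG1, BNIP3 and BHLHE40) and 3889 probes were called after ALKBH7 induction, 0 and 0 after ALKBH4 induction, and 0 members and 11 probes for the difference. With 3 arrays per group, genes near the detection limit such as HIF1A, PDK1 and ANKRD37 have only bounds in some groups.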
